A study of Danio rerio with 16 samples.

Results

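The genes described here are 9 genes known from the cardiac progenitors of the zebrafish embryo, nkx2.5, gata4, gata5, gata6, hand2, tbx5a, tbx20, mef2cb and myl7. They were chosen by symbol, and all 9 were found among the 32520 genes of the count table and passed the filter on low counts, which kept 19903 genes for testing. The question was whether their RNA differed in the gfi1 mutants in which the blood and vessel gene etv2 was higher. The 16 RNA libraries came from whole embryos at 15 h post fertilization (hpf), with 8 genotypes of 2 libraries each. The alleles were smu10 of gfi1aa, smu11 of gfi1b and smu12 of gfi1ab, and wild type siblings (WT) were sequenced beside embryos homozygous for 1 of them (gfi1aa-/-, gfi1b-/-, gfi1ab-/-), for a pair (double mutants or DM, called gfi1aa/1b DM, gfi1b/1ab DM and gfi1aa/1ab DM) or for all 3 (gfi1 TM). All 3 genes encode zinc finger repressors of transcription of the Gfi1 family. The 4 genotypes that lack gfi1aa are called gfi1aa related mutants, and they were set against WT and the gfi1aa unrelated mutants, which are 4 genotypes as well. The mutants came from different crosses, in which the parents of the triple mutant and of both double mutants that lack gfi1aa were themselves homozygous for 1 or 2 of the alleles, and the cross behind gfi1b/1ab DM is not named, so genotypes cannot be told apart from clutches. Nothing states how many embryos made up a library or that the replicates came from separate clutches, so p-values measure the spread between these libraries only.

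The heart of the zebrafish forms from paired fields of the anterior lateral plate mesoderm, next to mesoderm that forms vessels and early blood. In that mesoderm nkx2.5, the gata factors, hand2 and the T-box genes are among the regulators that set up the heart fields, and myl7 is among the first genes of the contractile apparatus to be expressed. Regulators of the blood and vessel lineages, etv2 and tal1 among them, are known in zebrafish to restrict the heart field, and their loss lets heart cells form from mesoderm that would otherwise give vessels.

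Each library held 15657371 to 22524501 counts on genes, and the lowest and highest member counts in 1 library were 7 reads for myl7 and 1660 reads for gata5. Levels are given as reads scaled to library size (CPM) with TMM library sizes, and they are not compared between genes because transcript lengths were not used. The mutant alleles still gave transcripts, with gfi1aa at 7.0 to 10.3 CPM in the 8 libraries mutant for it and 9.10 to 13 CPM in the other 8, so these levels do not check the genotype labels. For etv2 the gfi1aa related libraries held 59.7 to 88.8 CPM (median 74.3), and the others held 44.7 to 51.8 CPM (median 48.1). The libraries of the 2 sides did not overlap for etv2, which held for 0.538% of all tested genes. The log2 fold change of etv2 was 0.61 (SE 0.0378, edgeR adjusted p = 1.33e-07). Libraries of whole embryos cannot show whether etv2 was higher in the mesoderm next to the heart fields or elsewhere. The paper imaged its etv2 reporter in the intermediate cell mass.

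hand2 and gata5 were the members that were higher in gfi1aa related mutants, by 0.22 and 0.26 on the log2 scale, both less than the change of etv2. The other 7 members did not pass the threshold of an adjusted p under 0.05. The 2 calls among 9 members compare with 7.08% of all tested genes called higher and 14.6% called in either direction in this comparison. The median log2 fold change of the members was 0.07, beside 0.00 over all tested genes. In whole embryos, fewer cells of a type and less RNA per cell cannot be told apart.

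**Figure D1:**
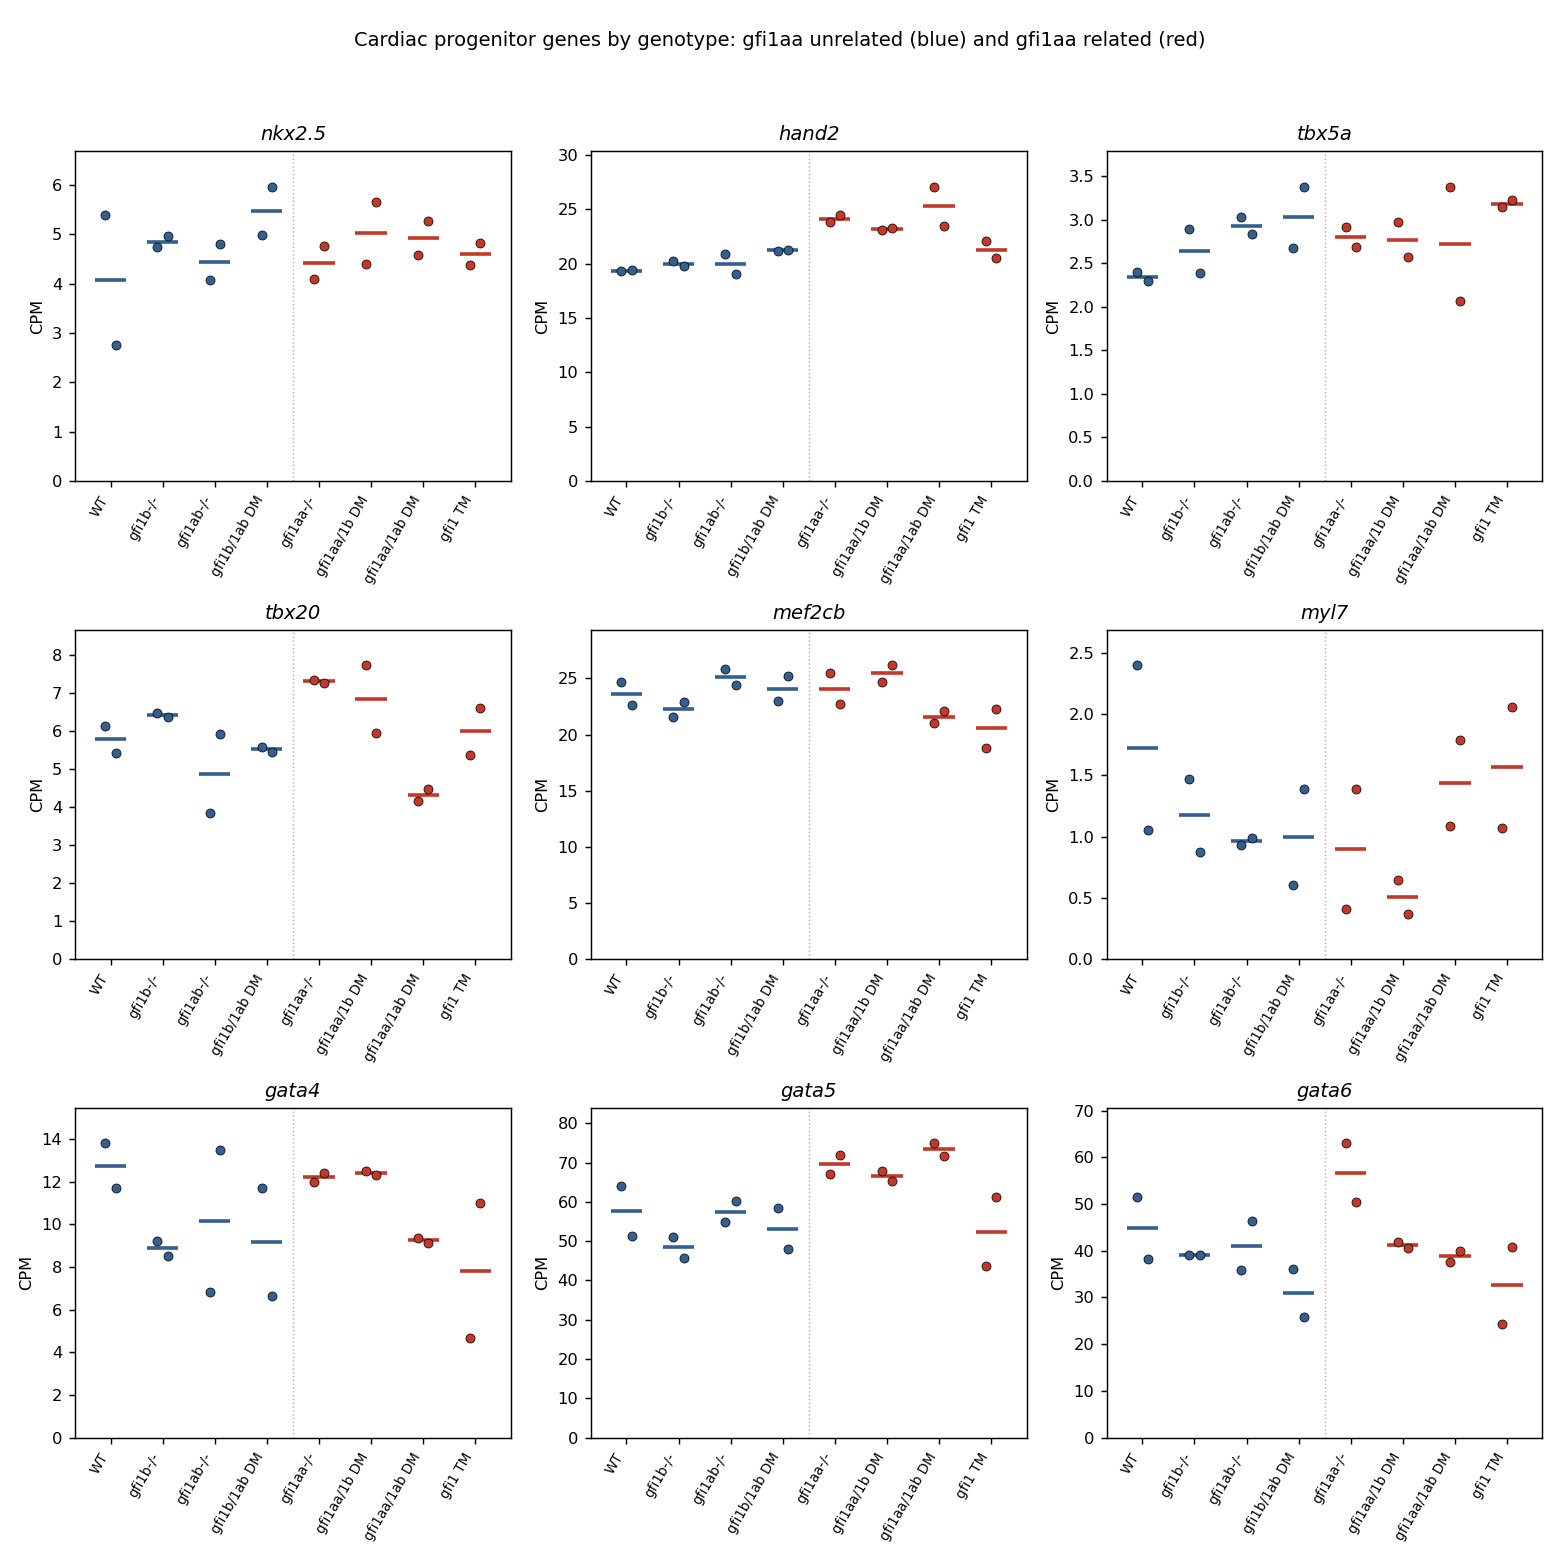
Level of each cardiac progenitor gene (vertical axis, CPM, from 0) in the 2 libraries of each of the 8 genotypes (points) with their mean (bar), in WT and gfi1aa unrelated mutants (blue) and gfi1aa related mutants (red). For hand2, 7 of the 8 red libraries lie above all 8 blue ones, while gata4 spreads from 4.66 to 11 CPM within gfi1 TM alone.

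hand2 encodes a basic helix-loop-helix factor needed in zebrafish for heart precursors, and it is also expressed in the posterior lateral plate mesoderm, the pharyngeal arches and the fin buds. Its levels were 19.3 and 19.4 CPM in WT, 20.2 and 19.8 CPM in gfi1b-/-, 20.9 and 19.0 CPM in gfi1ab-/-, and 21.2 and 21.3 CPM in gfi1b/1ab DM. In the genotypes that lack gfi1aa they were 23.8 and 24.5 CPM in gfi1aa-/-, 23.1 and 23.3 CPM in gfi1aa/1b DM, 27.1 and 23.5 CPM in gfi1aa/1ab DM, and 22.1 and 20.5 CPM in gfi1 TM. The sides overlapped in a single gfi1aa related library, gfi1 TM replicate 2, and the other 7 lay above all 8 libraries of the other side. The difference was 0.22 (SE 0.0458, edgeR adjusted p = 0.00577), and leaving out any 1 library gave 0.19 to 0.24 with adjusted p from 0.00304 to 0.0219. A fit with only 1 mean per side, in which differences between the genotypes of a side count as spread, gave the same 0.22 with an adjusted p of 0.0504. That fit called 147 of 18231 tested genes higher and 111 lower.

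gata5 encodes a zinc finger factor needed in zebrafish for heart and endoderm, and it is known from the yolk syncytial layer as well. Its levels were 64.1 and 51.4 CPM in WT, 51.1 and 45.7 CPM in gfi1b-/-, 55.0 and 60.1 CPM in gfi1ab-/-, and 58.4 and 48.0 CPM in gfi1b/1ab DM. They were 67.2 and 71.9 CPM in gfi1aa-/-, 67.8 and 65.2 CPM in gfi1aa/1b DM, 74.9 and 71.8 CPM in gfi1aa/1ab DM, and 43.6 and 61.3 CPM in gfi1 TM. All 6 libraries of gfi1aa-/-, gfi1aa/1b DM and gfi1aa/1ab DM lay above every library of the other side, and both gfi1 TM libraries lay within or below its range. The difference of 0.26 (SE 0.0699) had an edgeR adjusted p of 0.0213. The call was lost without gfi1aa-/- replicate 2 (adjusted p = 0.0639), gfi1b-/- replicate 2 (0.0622), gfi1aa/1b DM replicate 1 (0.0524), gfi1b/1ab DM replicate 2 (0.0642) or WT replicate 2 (0.0609), and with 1 mean per side (adjusted p = 0.17).

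Skeletal muscle genes, which rise as the somites mature, were read as a measure of stage. The summed level of 13 such genes was 1112 to 1483 CPM (median 1177) on the side without gfi1aa and 1280 to 1582 CPM in the others (median 1403), so the sides overlapped. No gene of the list was at 0, and 1 of the 13, smyhc1, a myosin of slow muscle, passed the test (log2 fold change -0.29, edgeR adjusted p = 0.000201). With the muscle score of each library as a covariate, hand2 was higher by 0.25 (adjusted p = 0.011) and gata5 by 0.24 (adjusted p = 0.0816). The part of stage in the gata5 result was not tested beyond this. Of 5 tested genes of the pectoral fin field, 0 were higher and 1, sall4, was lower (-0.18, adjusted p = 0.00736). Of 7 genes of the neural crest and pharyngeal arches, crestin (0.38, adjusted p = 0.0105) and tfap2a (0.13, adjusted p = 0.0284) were higher and 0 were lower. Over all tested genes 14.6% were called in either direction between the sides. The tfap2a call held only when the library left out was gfi1ab-/- replicate 1, gfi1aa/1ab DM replicate 2, gfi1b/1ab DM replicate 1, WT replicate 1 or either gfi1 TM library. With 1 mean per side none of these 4 genes was called, with adjusted p of 0.147 for smyhc1, 0.335 for sall4, 0.363 for crestin and 0.15 for tfap2a, and with the muscle score tfap2a had an adjusted p of 0.075. The part of these tissues in the hand2 result was not tested.

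The other regulators of the heart field gave no call. nkx2.5, the homeobox gene that marks the heart field, was at 4.09 to 5.66 CPM (median 4.67) in gfi1aa related mutants and 2.76 to 5.97 CPM (median 4.89) in the others, with the lowest and the highest of all 16 libraries on the side that keeps gfi1aa. Its log2 fold change was 0.02 (SE 0.127, edgeR adjusted p = 0.948). tbx5a, a T-box gene of heart and pectoral fin, was at 2.07 to 3.38 CPM (median 2.94) against 2.29 to 3.38 CPM (median 2.75), a difference of 0.07 (SE 0.122, edgeR adjusted p = 0.744). tbx20, a T-box gene of heart and cranial motor neurons, was at 4.16 to 7.75 CPM (median 6.29) against 3.85 to 6.48 CPM (median 5.77), a difference of 0.09 (SE 0.0997, edgeR adjusted p = 0.613). mef2cb, a MADS box factor of heart muscle differentiation, was at 18.8 to 26.2 CPM (median 22.5) against 21.6 to 25.8 CPM (median 23.7), a difference of -0.06 (SE 0.0514, edgeR adjusted p = 0.509). The sides overlapped for all 4 genes. The standard errors show that the test was tightest for mef2cb and loosest for nkx2.5 and tbx5a, which had 58 to 120 and 37 to 68 reads per library.

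Of the 2 other gata members, gata6 was at 24.4 to 63.0 CPM (median 40.8) in gfi1aa related mutants and 25.9 to 51.6 CPM (median 38.7) in the others, a difference of 0.10 (SE 0.106, edgeR adjusted p = 0.578). gata4 was at 4.66 to 12.5 CPM (median 11.5) against 6.66 to 13.8 CPM (median 10.5), a difference of 0.00 (SE 0.168, edgeR adjusted p = 0.993). Both factors act in heart and gut endoderm, and the libraries of the sides overlapped for both. Of the members, gata6 is the one that lies on the chromosome of gfi1aa, with 142 protein-coding genes between them in the RefSeq annotation of GRCz12tu.

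myl7, the regulatory myosin light chain of heart muscle, had only 7 to 48 reads per library. It was at 0.367 to 2.06 CPM (median 1.08) in gfi1aa related mutants and 0.605 to 2.40 CPM (median 1.02) in the others. The difference of -0.23 (SE 0.301, edgeR adjusted p = 0.666) was smaller than its standard error, and leaving out single libraries moved it between -0.52 and -0.05.

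**Figure D2:**
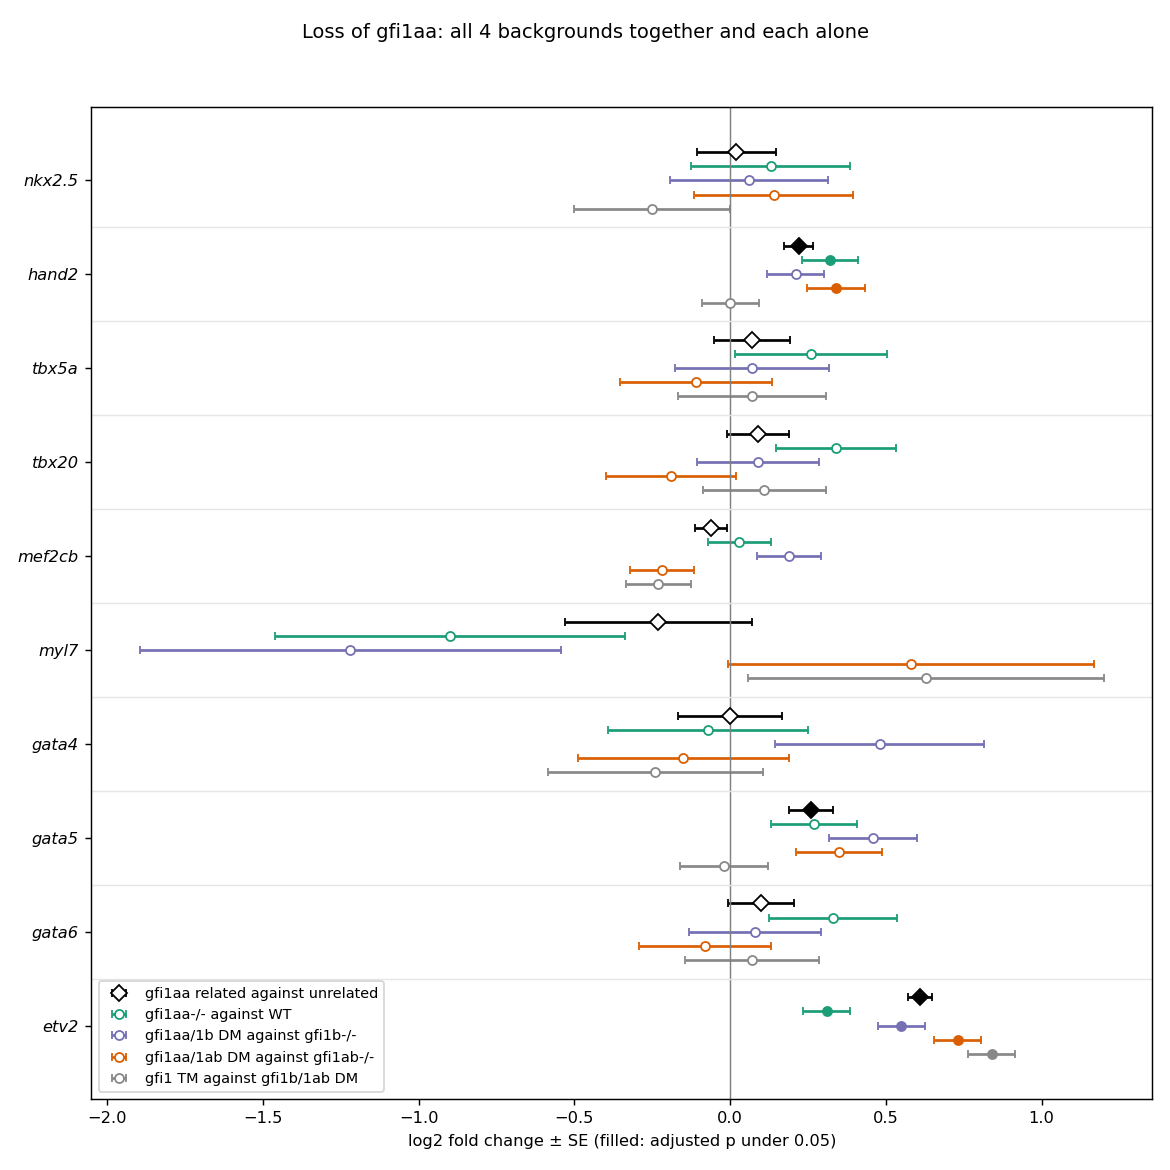
Log2 fold change (horizontal axis, with SE as bars) of the 9 members and etv2 on loss of gfi1aa, over all 4 backgrounds (diamonds) and within each background (circles), with filled symbols for an adjusted p under 0.05. etv2 is filled throughout, while hand2 runs from 0.34 in the gfi1ab-/- background to 0.00 in the gfi1b/1ab DM background.

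The loss of gfi1aa can be read within each background. In gfi1aa-/- against WT, 1 of 9 members was called, hand2 at 0.32 (SE 0.0908, edgeR adjusted p = 0.0323), while 12.1% of all tested genes were called in either direction. etv2 was 0.31 higher there (edgeR adjusted p = 0.014). The hand2 call was lost with DESeq2 (adjusted p = 0.139), without the filter on low counts (0.0826) and with the muscle score as covariate (0.0758). It was also lost without gfi1aa-/- replicate 1 (adjusted p = 0.112) or replicate 2 (0.181), WT replicate 1 (0.129) or replicate 2 (0.142), or gfi1b-/- replicate 1 (0.0507).

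In gfi1aa/1ab DM against gfi1ab-/-, hand2 was again the 1 member called, at 0.34 (SE 0.0918, edgeR adjusted p = 0.0234), beside 14.1% of all tested genes. The call was lost without gfi1aa/1ab DM replicate 1 (adjusted p = 0.182), which had the highest hand2 level of all libraries, or gfi1ab-/- replicate 2 (0.185), which had the lowest. It was lost too with DESeq2 (adjusted p = 0.0937), without the filter (0.0591) and in a fit of these 2 genotypes alone (0.112).

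In gfi1aa/1b DM against gfi1b-/-, 0 of 9 members were called by edgeR, with 4.67% of all tested genes called, and 2 members had an unadjusted p under 0.05. These were gata5 at 0.46 (SE 0.141, edgeR adjusted p = 0.0805) and hand2 at 0.21 (SE 0.0923, edgeR adjusted p = 0.232). DESeq2 called 1 member here, gata5. In gfi1 TM against gfi1b/1ab DM, 0 of 9 members were called by edgeR and 0 by DESeq2, with 1.96% of all tested genes called by edgeR, and 1 member, mef2cb at -0.23, had an unadjusted p under 0.05. In this background etv2 was 0.84 higher (SE 0.0754, edgeR adjusted p = 3.93e-05), its largest value among the 4 backgrounds. hand2 differed by 0.00 (SE 0.0915) and gata5 by -0.02 (SE 0.141) between the same libraries. The effect of gfi1aa loss on hand2 was 0.22 smaller where gfi1b was mutant, with an edgeR adjusted p of 0.198, so a difference between backgrounds was not shown.

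Against WT, 3 comparisons were added after the first results were seen. hand2 was 0.38 higher in gfi1aa/1ab DM (SE 0.0917, edgeR adjusted p = 0.00798), the 1 member called beside 22.9% of all tested genes. That call was lost without gfi1aa/1ab DM replicate 1 (adjusted p = 0.0874), WT replicate 1 (0.0545) or WT replicate 2 (0.0589). In gfi1aa/1b DM against WT edgeR called 0 members, with 9.69% of all tested genes called and 2 members, hand2 (0.26) and myl7 (-1.78), at an unadjusted p under 0.05, and DESeq2 called 0. In gfi1 TM against WT edgeR called 0 members, with 13.1% of all tested genes called and 2 members, gata4 (-0.72) and gata6 (-0.47), at an unadjusted p under 0.05, and DESeq2 called 0. These comparisons share the WT libraries, and WT held the lowest hand2 mean of the 8 genotypes.

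Loss of gfi1b or gfi1ab with gfi1aa intact gave no call among the members. Of the 9, 0 were called by edgeR and 0 by DESeq2 in gfi1b-/- against WT, where 9.46% of all tested genes were called and 0 members had an unadjusted p under 0.05. In gfi1ab-/- against WT, 0 were called by either tool and 0 had an unadjusted p under 0.05, beside 10.3% of all tested genes called. In gfi1b/1ab DM against WT, 0 were called by either tool and 1, gata6 at -0.54, had an unadjusted p under 0.05, beside 10.6% of all tested genes called. etv2 differed by -0.09, 0.04 and -0.04 in these comparisons, with edgeR adjusted p of 0.536, 0.815 and 0.785.

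Averaged over all backgrounds, the loss of gfi1ab went with lower tbx20 and gata6. These 2 of 9 members compare with 23.9% of all tested genes called in either direction and 11.2% called lower. In the same comparison etv2 was 0.22 higher (edgeR adjusted p = 0.00118). tbx20 was at 3.85 and 5.93 CPM in gfi1ab-/-, 5.60 and 5.47 CPM in gfi1b/1ab DM, 4.16 and 4.49 CPM in gfi1aa/1ab DM, and 5.39 and 6.61 CPM in gfi1 TM. In the genotypes that keep gfi1ab it was at 6.15 and 5.43 CPM in WT, 6.48 and 6.39 CPM in gfi1b-/-, 7.36 and 7.27 CPM in gfi1aa-/-, and 7.75 and 5.97 CPM in gfi1aa/1b DM. The sides overlapped, and the lowest 3 libraries were both gfi1aa/1ab DM libraries and gfi1ab-/- replicate 1. The difference was -0.35 (SE 0.0996, edgeR adjusted p = 0.0209), and it was lost without gfi1aa/1b DM replicate 1 (adjusted p = 0.0625).

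gata6 was lower on loss of gfi1ab, with a log2 fold change of -0.34 (SE 0.106, edgeR adjusted p = 0.0311). The call was lost, with adjusted p from 0.0506 to 0.079, without any 1 of 10 libraries, which were gfi1aa-/- replicate 1, both gfi1b-/- libraries, gfi1ab-/- replicate 1, both libraries of gfi1aa/1b DM and of gfi1aa/1ab DM, gfi1b/1ab DM replicate 2 and WT replicate 1. The muscle genes moved with gfi1ab as well, since 7 of 13 were higher and 1 was lower on its loss. With the muscle score as covariate the differences were -0.23 for tbx20 (adjusted p = 0.489) and -0.17 for gata6 (adjusted p = 0.638), and neither was called. The part of stage in these results was not tested further.

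On loss of gfi1b over all backgrounds edgeR called 0 of 9 members, with 9.74% of all tested genes called. The 2 members with an unadjusted p under 0.05 were gata5 at -0.23 (edgeR adjusted p = 0.0513) and gata6 at -0.33 (edgeR adjusted p = 0.0645), and DESeq2 called both lower. Of 9 tested genes of the yolk syncytial layer, 7 were lower and 0 higher on this loss, with a median of -0.45. That list, described below, was made after the gata4 and gata6 patterns were seen. The cause of these shifts was not tested. In gfi1 TM against gfi1aa-/-, 1 of 9 members was called, gata6 at -0.80 (SE 0.211, edgeR adjusted p = 0.0257), beside 10.8% of all tested genes. Its levels were 24.4 and 40.8 CPM in gfi1 TM and 63.0 and 50.4 CPM in gfi1aa-/-, and both pairs were wide. The call was lost without gfi1 TM replicate 1 (-0.47, adjusted p = 0.181) or gfi1aa-/- replicate 1 (-0.64, adjusted p = 0.212), and in a fit of these 2 genotypes alone (adjusted p = 0.168). Of the 13 skeletal muscle genes 4 were higher and 0 lower in this comparison, and with the muscle score as covariate gata6 was at -0.49 (adjusted p = 0.555). Without that covariate etv2 was 0.48 higher in gfi1 TM than in gfi1aa-/- (edgeR adjusted p = 0.00125).

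The interactions gave no call among the members. For gfi1aa with gfi1b, edgeR and DESeq2 called 0 of 9, with 4.02% of all tested genes called by edgeR and 1 member, hand2, at an unadjusted p under 0.05. For gfi1aa with gfi1ab, both tools called 0 of 9, with 8.60% of all tested genes called by edgeR. The 2 members with an unadjusted p under 0.05 were mef2cb at -0.33 (edgeR adjusted p = 0.0568) and myl7 at 1.66 (edgeR adjusted p = 0.0997).

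The order of the genotypes was mostly within the spread of the replicates. For nkx2.5, gata4, gata6, tbx5a, tbx20, mef2cb and myl7, all 7 pairs of neighbouring genotypes, ordered by mean, had overlapping libraries. How often such pairs separate over all genes was not computed, so the counts of separated pairs are not read as traits of the members. For gata5, 1 of the 7 pairs was separated, with gfi1aa/1b DM above WT and the 3 highest genotypes all lacking gfi1aa. For hand2, 3 of the 7 pairs were separated, each between genotypes of the same side. Its order ran from gfi1aa/1ab DM through gfi1aa-/-, gfi1aa/1b DM, gfi1 TM, gfi1b/1ab DM, gfi1b-/- and gfi1ab-/- to WT. gfi1 TM and gfi1b/1ab DM, the neighbours from opposite sides, overlapped and had the same mean of 21.3 CPM. gfi1 TM, which was first for etv2 with 88.8 and 81.9 CPM, stood below the other 3 genotypes lacking gfi1aa for hand2.

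Several members varied between the 2 libraries of a genotype. The widest gap was that of myl7 in gfi1aa-/-, 3.39-fold, at few reads, and nkx2.5 differed 1.95-fold in WT and tbx5a 1.63-fold in gfi1aa/1ab DM. gata4 differed 2.36-fold between the libraries of gfi1 TM (4.66 and 11 CPM), 1.98-fold in gfi1ab-/- (6.83 and 13.5 CPM) and 1.76-fold in gfi1b/1ab DM (11.7 and 6.66 CPM). In gfi1aa-/-, gfi1aa/1b DM and gfi1aa/1ab DM the libraries differed by no more than 1.03-fold. gata6 differed 1.68-fold in gfi1 TM, and gata5 1.41-fold.

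The yolk syncytial layer is the nucleated layer between yolk and embryo that packs yolk lipid into lipoproteins. Its genes moved with gata4 in the genotypes where the gata4 levels of the libraries differed most. A list of 11 such genes was made after the gata4 and gata6 patterns were seen, and 0 of them had no reads over all libraries, although mxtx2 and ttr were too low to be tested. Their summed level was 3137 and 5480 CPM in gfi1 TM, 4580 and 7548 CPM in gfi1ab-/-, and 5882 and 4054 CPM in gfi1b/1ab DM, so in each of these genotypes the library with less gata4 also had less of these transcripts. The same library was the higher one for gata4 and for the summed level in 7 of 8 genotypes, and for gata5 in 7. It was so in 5 genotypes for each of gata6, nkx2.5, tbx20 and myl7, in 4 for tbx5a, in 3 for mef2cb and in 2 for hand2. In gfi1aa-/-, gfi1aa/1b DM and gfi1aa/1ab DM the gaps were at most 1.04-fold in the summed level and 1.03-fold in gata4. The direction of gaps this small says little, and for hand2 no genotype had a gap over 1.15-fold. The list was made with the gata4 and gata6 patterns known, so its match with the gata members, gata5 among them, is not independent evidence. The share of all tested genes that matched as often was not computed. Over the sides, the summed level in the mutants that lack gfi1aa was 3137 to 6824 CPM (median 5924), against 3613 to 7548 CPM (median 4533) in the others, and 1 of 9 tested genes, apoc2, was higher (0.34, adjusted p = 0.00233) and 1, rbp4, lower (-0.25, adjusted p = 0.00692). Between the sides 14.6% of all tested genes were called in either direction. With 1 mean per side neither apoc2 nor rbp4 was called (adjusted p of 0.175 and 0.559), and in gfi1aa-/- against WT rbp4 was higher, at 0.62 (adjusted p = 0.00152). apoc2 encodes an apolipoprotein and rbp4 a retinol carrier.

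With the yolk syncytial layer score as covariate, an alternative chosen after seeing the data, hand2 was 0.22 higher in gfi1aa related mutants (adjusted p = 0.00256) and gata5 0.24 higher (adjusted p = 0.00143). gata6 in gfi1 TM against gfi1aa-/- then differed by -0.35 (adjusted p = 0.142) and was no longer called. Of 6 tested endoderm genes, 0 passed the test between the sides. Their summed level, with the untested sox32 of the list, was 112 to 135 CPM on the side without gfi1aa and 108 to 132 CPM on the other. With the same covariate gata6 was at -0.50 on loss of gfi1ab (adjusted p = 2.27e-05, beside -0.34 without it), and between the sides gata6 differed by 0.06 (adjusted p = 0.504) and gata4 by -0.06 (adjusted p = 0.665). The list behind the score was made with the gata4 and gata6 patterns known. Lower adjusted p of gata genes with this covariate are therefore not independent evidence for them.

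**Figure D3:**
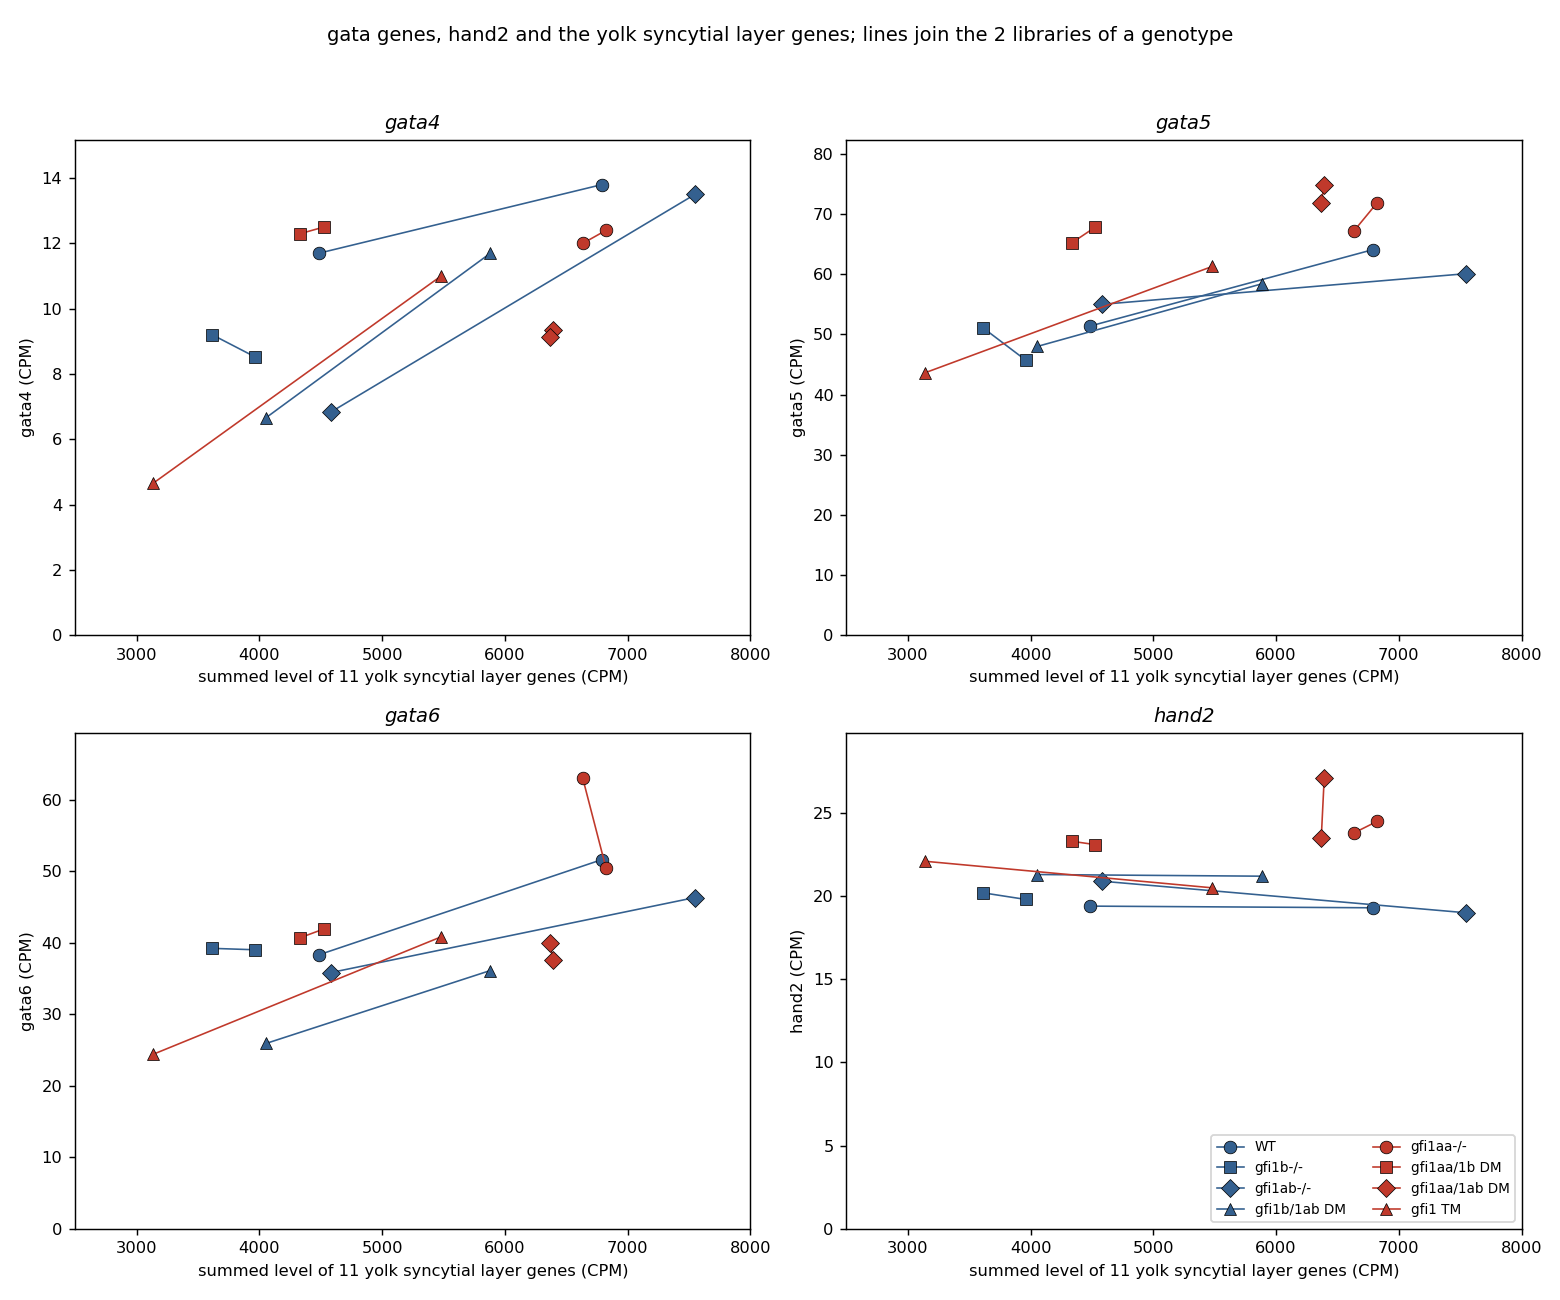
Levels of gata4, gata5, gata6 and hand2 (vertical axes, CPM, from 0) against the summed level of 11 yolk syncytial layer genes (horizontal axis, CPM), with a line between the 2 libraries of each genotype, blue for WT and gfi1aa unrelated mutants and red for gfi1aa related mutants. In gfi1 TM, gata4 goes from 4.66 to 11 CPM as the summed level goes from 3137 to 5480 CPM, while hand2 goes from 22.1 to 20.5 CPM.

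The pathway around the members was read from lists of other heart genes. Of 17 other regulators and signals of the heart field, 2 were higher in gfi1aa related mutants, 1 was lower and 14 did not pass, beside 14.6% of all tested genes called in either direction, and the median log2 fold change was 0.03. nkx2.7, a homeobox gene that acts with nkx2.5 in the zebrafish heart, was 0.26 higher (edgeR adjusted p = 0.0275), and fgf8a, a growth factor needed for heart induction, was 0.19 higher (edgeR adjusted p = 0.0402). mef2ca, the duplicate of mef2cb, was lower, at -0.28 (SE 0.0655, edgeR adjusted p = 0.00969). The fgf8a call held only when the library left out was gfi1aa/1ab DM replicate 2, gfi1 TM replicate 2 or WT replicate 2. The nkx2.7 call was lost without any 1 of 10 libraries, all except gfi1aa-/- replicate 1, gfi1b-/- replicate 2, gfi1ab-/- replicate 1, gfi1aa/1ab DM replicate 2, gfi1b/1ab DM replicate 2 and gfi1 TM replicate 2. With 1 mean per side none of these 3 genes was called, with adjusted p of 0.108 for nkx2.7, 0.228 for fgf8a and 0.183 for mef2ca. The fgf8a call was also lost with DESeq2 (adjusted p = 0.0993), and with the replicate number as a block its adjusted p was 0.0518. With the muscle score as covariate fgf8a had an adjusted p of 0.0914, and mef2ca was at -0.21 (adjusted p = 0.0687).

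Of 7 blood and vessel specifiers, 5 were higher and 0 lower, with a median of 0.22, beside 7.08% of all tested genes called higher. Beside etv2 these included kdrl, the vascular endothelial growth factor receptor (0.54, edgeR adjusted p = 1.67e-05), sox7, a vessel transcription factor (0.62, edgeR adjusted p = 5.05e-05), and tal1, the blood and vessel regulator (0.19, edgeR adjusted p = 0.00736). With 1 mean per side tal1 was not called (adjusted p = 0.16). In gfi1aa-/- against WT 2 of the 7, etv2 and sox7, were higher, while tal1 differed by 0.01 (edgeR adjusted p = 0.942). The gfi1aa by gfi1ab interaction was called higher for 2 of the 7, etv2 (0.35, edgeR adjusted p = 0.0104) and tal1, beside 8.60% of all tested genes called in either direction. By in situ hybridization the paper reported scl (tal1) as unaltered in gfi1aa-/-. This list was chosen with the study's result on etv2 and sox7 known, so it is not independent evidence of its direction.

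Of 15 tested other heart muscle genes, in 16 rows because actc1a has 2 gene entries, 0 were higher in gfi1aa related mutants, 1 was lower and 15 rows did not pass. The median was -0.06, and 14.6% of all tested genes were called in either direction. The lower one was nexn, a filament protein of striated muscle (-0.23, SE 0.0481, edgeR adjusted p = 0.00553). With 1 mean per side its adjusted p was 0.068. With the muscle score as covariate nexn was at -0.18 (edgeR adjusted p = 0.0402). Some of these genes are shared with skeletal muscle, whose summed level, given above, had a lower median in gfi1aa related mutants, although the sides overlapped.

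Genes with more heart-restricted expression were low, and 5 of them, myl7, cmlc1, tnni1b, tnnc1a and myh6, are described together after their values were seen. Their sum does not stand for all heart muscle genes, since others of the list did not follow it. In gfi1aa/1b DM against WT, tnnt2a was at 0.19 (edgeR adjusted p = 0.564) and myh7 at -0.53 (edgeR adjusted p = 0.178). There myl4, which is not in the sum, was called higher at 1.03 (edgeR adjusted p = 0.0456). The median of the other heart muscle genes was -0.19 there, with 1 higher and 3 lower, beside 9.69% of all tested genes called. The 5 genes encode light chains, troponins and the atrial heavy chain of heart muscle. Their summed level was 12.4 and 6.24 CPM in WT, 4.14 and 4.10 CPM in gfi1b-/-, 4.55 and 4.95 CPM in gfi1ab-/-, and 3.78 and 5.02 CPM in gfi1b/1ab DM. It was 3.53 and 4.85 CPM in gfi1aa-/-, 2.71 and 2.46 CPM in gfi1aa/1b DM, 8.02 and 9.47 CPM in gfi1aa/1ab DM, and 5.78 and 7.56 CPM in gfi1 TM. The lowest libraries were both of gfi1aa/1b DM, with 42 and 47 reads on the 5 genes together, and the highest was WT replicate 1, with 248 reads.

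**Figure D4:**
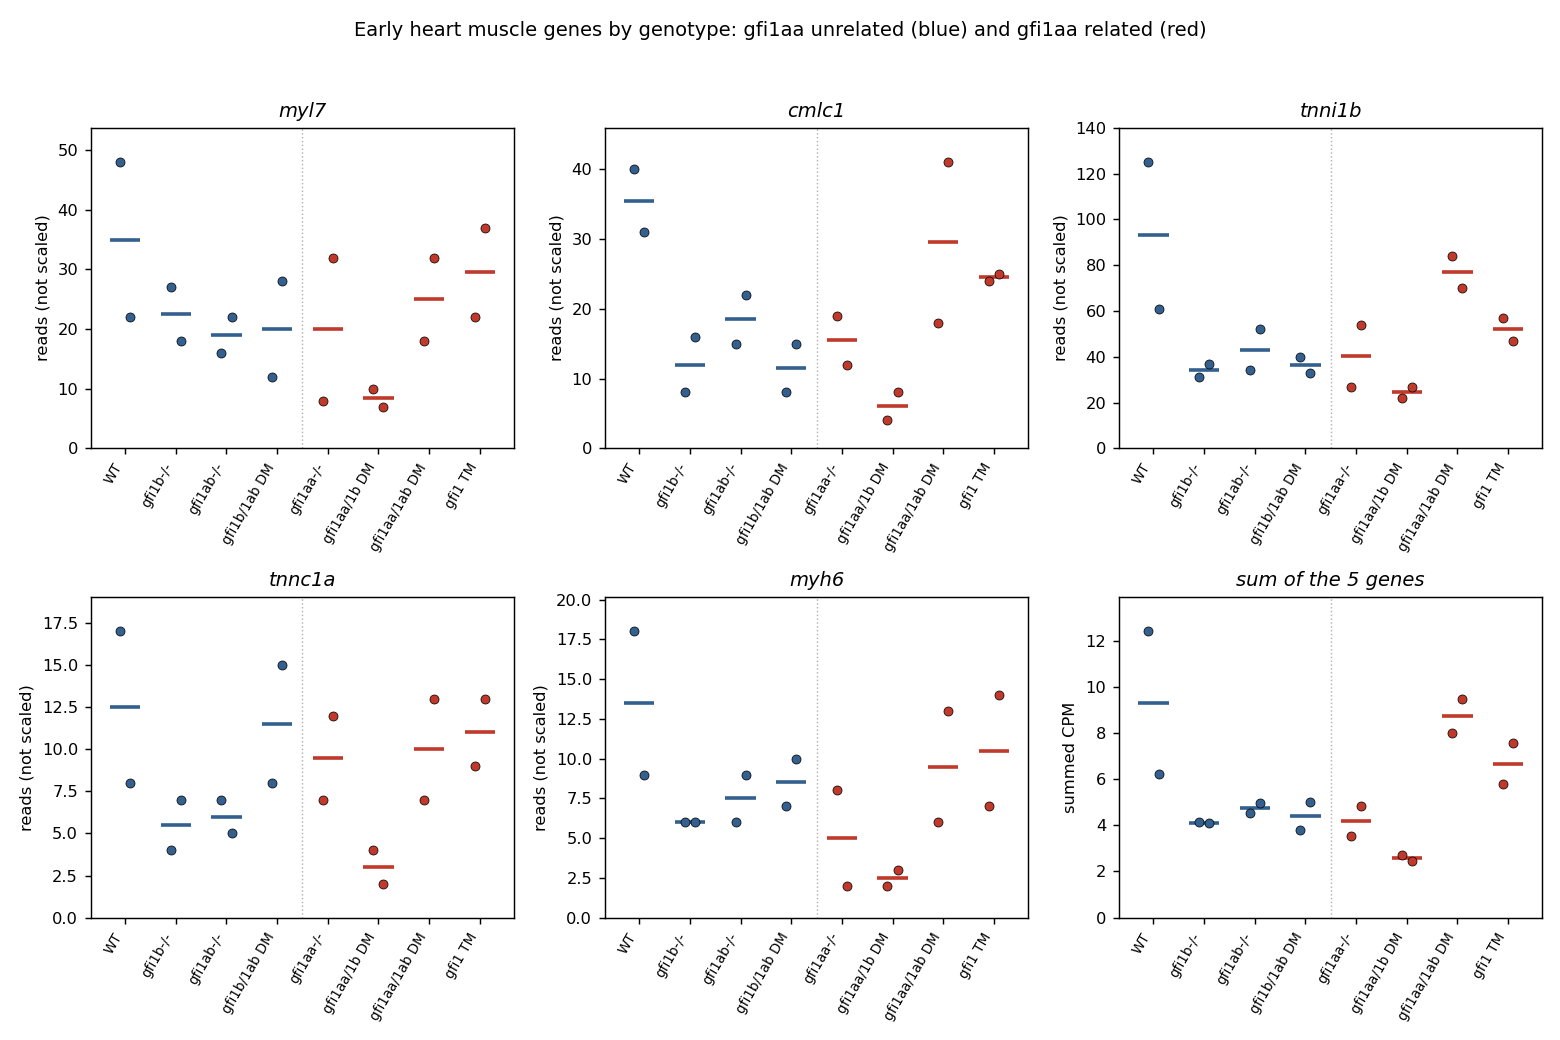
Reads of 5 early heart muscle genes (vertical axes, reads without scaling) and their summed level (last panel, CPM) in the 2 libraries of each genotype (points) with their mean (bar), blue for WT and gfi1aa unrelated mutants and red for gfi1aa related mutants. gfi1aa/1b DM lies lowest in the summed level at 2.71 and 2.46 CPM, and WT replicate 1 highest at 12.4 CPM. The 5 genes were chosen after their values were seen, and other heart muscle genes did not follow them.

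In gfi1aa/1b DM against WT, tnni1b was lower at -1.68 (SE 0.35, edgeR adjusted p = 0.00726) and cmlc1 at -2.31 (SE 0.516, edgeR adjusted p = 0.0111), while myl7 at -1.78 (SE 0.643, edgeR adjusted p = 0.101) was not called. Of 15 tested other heart muscle genes, tnni1b, cmlc1 and 1 entry of actc1a were lower in this comparison. Among all tested genes, 9.69% were called there in either direction. The lower actc1a entry was at -6.23 and the other at -0.05 (edgeR adjusted p of 0.025 and 0.918). On loss of gfi1ab over all backgrounds the first entry was higher, at 6.03. Skeletal muscle genes were lower here too, 3 of 13 (smyhc1, acta1b and mylpfa), with 0 higher. For gfi1aa-/- that list had 4 calls below WT and 0 above. Another heart muscle gene, myl4, was higher at 1.03 (edgeR adjusted p = 0.0456). Against WT, myl4 was also called higher in gfi1ab-/-, gfi1b/1ab DM and gfi1 TM. WT replicate 1 stood well above WT replicate 2 for tnni1b (125 and 61 reads) and myl7 (48 and 22 reads), and less so for cmlc1 (40 and 31 reads). Without WT replicate 1 the adjusted p was 0.108 for tnni1b and 0.0742 for cmlc1, and without gfi1aa/1b DM replicate 1 or replicate 2 it was 0.0632 and 0.0785 for tnni1b and 0.11 and 0.0689 for cmlc1. In gfi1aa-/- against WT, tnni1b was lower at -1.28 (edgeR adjusted p = 0.0182), with 0.283 without WT replicate 1, 0.171 without gfi1aa-/- replicate 1, 0.178 with the muscle score and 0.062 in a fit of these 2 genotypes alone.

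The other genotypes that keep gfi1aa were below WT for tnni1b as well. It was lower at -1.38 in gfi1b-/- (edgeR adjusted p = 0.0177), -1.07 in gfi1ab-/- (edgeR adjusted p = 0.0497) and -1.32 in gfi1b/1ab DM (edgeR adjusted p = 0.0191), and cmlc1 was lower at -1.58 in gfi1b/1ab DM (edgeR adjusted p = 0.0397). Without WT replicate 1 none of these 4 calls was made, with -0.73 (adjusted p = 0.253), -0.42 (0.521) and -0.66 (0.284) for tnni1b and -1.35 (0.195) for cmlc1. Each was also lost without either library of the mutant genotype compared, and the gfi1ab-/- call for tnni1b and the cmlc1 call were lost without any 1 of 11 and of 8 libraries. With the muscle score as covariate the tnni1b calls in gfi1b-/- (adjusted p = 0.0562) and gfi1ab-/- (0.077) and the cmlc1 call (0.0548) were lost, and DESeq2 gave 0.0799 for tnni1b in gfi1ab-/- and 0.0967 for cmlc1. The tnni1b call in gfi1b-/- was lost with the yolk syncytial layer score (adjusted p = 0.19), and those in gfi1ab-/- (0.137) and gfi1b/1ab DM (0.0681) in fits of the 2 genotypes alone. In gfi1aa/1ab DM against WT tnni1b differed by -0.02 and in gfi1 TM against WT by -0.76, without a call. Of 15 tested other heart muscle genes, 2 were higher (myl4 and tnnt2a) and 1 lower (tnni1b) in gfi1ab-/- against WT, beside 10.3% of all tested genes. In gfi1b-/- 0 were higher and 2 lower (tnni1b and an actc1a entry), beside 9.46%. In gfi1b/1ab DM 1 was higher (myl4) and 2 lower (tnni1b and cmlc1), beside 10.6%.

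In gfi1aa/1ab DM against gfi1ab-/-, tnni1b was 1.05 higher (edgeR adjusted p = 0.0471), and that call was lost without any 1 of 12 libraries, all except those of WT and gfi1 TM. It was lost too with DESeq2 (adjusted p = 0.0784) and the muscle score (0.0683), and with the replicate number as a block the adjusted p was 0.0578. Over all backgrounds together, tnni1b differed by 0.01 (SE 0.177) and cmlc1 by -0.01 (SE 0.228) between gfi1aa related mutants and the others.

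The genes most like each member over the 16 libraries were searched among 16699 genes with a mean of at least 1 CPM, and are given as a description. For hand2 they were ifrd1 (Pearson r = 0.958) and cyth3a (0.918). For gata4 they were tmem64 (0.914) and a1cf (0.905), for gata6 mvp (0.946) and mpp1 (0.943), and for gata5 CABZ01057488.1 (0.902) and c7b (0.898). For tbx20 they were oxsr1b (0.9) and ubr3 (0.87), for mef2cb kcnd2 (0.853) and RANBP2 (0.837), and for tbx5a zgc:63568 (0.855) and ppp1cbl (0.832). For myl7 they were myh7bb (0.87) and si:ch211-119d14.2 (0.828), and for nkx2.5 rtn2b (0.792) and CR376766.2 (0.758). None of the 9 members was among the 2 most like another member. The same 16 libraries, of 1 stage and 8 genotypes, enter every value, and no test was made of them.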

How the data were processed

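RNA of whole embryos was extracted with TRIzol and libraries were made with a NEBNext Ultra kit. The authors mapped reads to GRCz11 with STAR (version not given in the sources used here) and deposited whole-number read counts per Ensembl gene without normalization, once per library and once in a joint table, which agreed for all 16 libraries. Strands are not told apart, so overlapping and antisense genes are uncertain. The 4 lines of reads on no gene (19.56% to 22.74% of reads) were left out.

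Counts were tested with edgeR (4.0.16) in R (4.3.3). TMM library sizes, filterByExpr and a quasi-likelihood fit with 1 mean per genotype over all 16 libraries (8 residual degrees of freedom) were used, with Benjamini-Hochberg adjustment over all tested genes and a threshold of 0.05. Standard errors were derived from each fold change with its quasi-likelihood F value. The fit was tested on simulated data. DESeq2 (1.42.0), which the study used, was an alternative, as were other normalization, no filter, a replicate block, a muscle score or yolk syncytial layer score (mean centred log2 CPM, prior count 2) as covariate, the 2 sides or 2 genotypes alone, and each library left out. Tables used Python (3.11.15), pandas (2.3.3) and numpy (2.4.6).

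The members and lists were chosen with earlier results of these data known. Named genes are the members, etv2, up to 4 called genes per list (lowest p first) between gfi1aa related mutants and the others, and the 2 genes most like each member. Some heart muscle genes were named as well, after their values were seen. Promoter motifs were not analysed here.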

Additional observations from a re-analysis of the deposited data

Results flagged for a closer look

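In 18 groups tested (9 genes, the 8 gfi1aa related and the 8 other libraries of each), 3 held a library far from the rest, where chance flags about 1 in 20 groups. gata4 and gata5 were lowest among gfi1aa related mutants in the same library, gfi1 TM replicate 1, at 4.66 and 43.6 CPM, and the gap to the next library was 0.569 and 0.566 of the whole range, above Dixon's critical value for 8 libraries. That library also had the lowest summed level of yolk syncytial layer genes, 3137 CPM. tbx20 was lowest among the other 8 libraries in gfi1ab-/- replicate 1, at 3.85 CPM, with a gap of 0.599 of the range.

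The effect of gfi1aa loss on 2 heart muscle genes, cmlc1 and tnni1b, differed with the state of gfi1ab by the interaction term of the edgeR fit. Of 15 tested other heart muscle genes, 3 had a higher term (tpm4a, tnni1b and cmlc1) and 1, myl4, a lower one. Over all tested genes 8.60% were called for this interaction. Of the 13 skeletal muscle genes, 3 (mylpfa, acta1b and desma) had a higher term too and 0 a lower one, so it was not particular to heart muscle genes. In the other settings with all libraries, the muscle score among them, the adjusted p was at most 0.0443 for cmlc1 and 0.0403 for tnni1b. The term was 2.02 on the log2 scale for cmlc1 (adjusted p = 0.0201) and 1.59 for tnni1b (adjusted p = 0.012), and the direction of the effect differed. With gfi1ab intact, cmlc1 was at -1.23 in gfi1aa-/- against WT and -0.82 in gfi1aa/1b DM against gfi1b-/-, and tnni1b at -1.28 and -0.30. With gfi1ab mutant, cmlc1 was at 0.86 in gfi1aa/1ab DM against gfi1ab-/- and 1.14 in gfi1 TM against gfi1b/1ab DM, and tnni1b at 1.05 and 0.56. Of these 8 values 2 were called, tnni1b at -1.28 and at 1.05. Both genes were singled out after their values were seen, and cmlc1 had 4 to 41 reads per library. The cmlc1 result was lost without gfi1b-/- replicate 2 (adjusted p = 0.0859), gfi1aa/1b DM replicate 1 (0.0589), gfi1aa/1ab DM replicate 2 (0.0529) or gfi1b/1ab DM replicate 1 (0.0504), while tnni1b was called without any 1 library, with adjusted p up to 0.0351.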

How the results depend on the processing

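Members called are counted below, out of 9, and where a call was lost or gained the cause was not tested. The settings also changed the calls over all genes. Between gfi1aa related mutants and the others, the main fit called 1409 of 19903 tested genes higher and 1487 lower. The muscle score gave 853 and 836, and the yolk syncytial layer score 1921 and 1980. DESeq2 gave 1099 and 1320 of 20728, and 1 mean per side 147 and 111 of 18231. For the other comparisons such shares are not given under these settings. Their counts therefore show how far the calls moved and are not read as results about the members. With the skeletal muscle score as covariate the count went from 2 to 1 between gfi1aa related mutants and the others, from 1 to 0 in gfi1aa-/- against WT and in gfi1 TM against gfi1aa-/-, and from 2 to 0 on loss of gfi1ab. With 1 mean per side it was 0 for gfi1aa related mutants against the others. With DESeq2 it was 0 in gfi1aa-/- against WT and in gfi1aa/1ab DM against gfi1ab-/-, 1 in gfi1aa/1b DM against gfi1b-/- and 2 on loss of gfi1b. Without the filter on low counts it was 1 in gfi1aa/1b DM against gfi1b-/-, gfi1b/1ab DM against WT, the interaction of gfi1aa with gfi1ab and gfi1aa/1b DM against WT, 2 on loss of gfi1b and in gfi1aa/1ab DM and gfi1 TM against WT, and 3 in gfi1 TM against gfi1aa-/-. In gfi1aa-/- against WT and gfi1aa/1ab DM against gfi1ab-/- it stayed at 1 without the filter, but the gene called was gata6 and gata5 in place of hand2. In fits of the genotypes compared alone it was 2 in gfi1aa/1b DM against gfi1b-/- (gata5 and gata4), 1 in gfi1b-/- against WT (gata4) and 0 in gfi1 TM against gfi1aa-/-.

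With the yolk syncytial layer score as covariate, chosen after seeing the data, the count was 1 in gfi1aa/1b DM against gfi1b-/-, gfi1ab-/- against WT, gfi1b/1ab DM against WT and gfi1aa/1b DM against WT, 2 in gfi1aa/1ab DM against gfi1ab-/-, 0 in gfi1 TM against gfi1aa-/-, and 5 in gfi1aa/1ab DM against WT (hand2 and gata5 higher, tbx20, gata4 and gata6 lower). In the main fit of gfi1aa/1ab DM against WT, 22.9% of all tested genes were called. Gains of gata genes with this score are not independent evidence, since its list was made with the gata4 and gata6 patterns known. gata4 between gfi1aa related mutants and the others, never called, turned from 0.00 to 0.00 (below zero) without the filter, to -0.12 with the muscle score and to -0.06 with the yolk syncytial layer score. Normalization by size factors of the RLE method moved no count by over 1.5 times.

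Leaving out single libraries gave 1 to 2 members for gfi1aa related mutants against the others, 0 to 1 for gfi1aa-/- against WT, gfi1aa/1b DM against gfi1b-/- and gfi1b/1ab DM against WT, 0 to 2 for gfi1aa/1ab DM against gfi1ab-/- and against WT, for loss of gfi1b and for the interaction of gfi1aa with gfi1ab, 0 to 3 for loss of gfi1ab and gfi1 TM against WT, and 0 to 4 for gfi1 TM against gfi1aa-/-. The highest counts for gfi1 TM, 4 against gfi1aa-/- and 3 against WT, came without gfi1 TM replicate 2. The other comparisons stayed at 0. Where 1 library of a genotype remained, it was assumed to vary like the others. Shares over all tested genes are not given for these fits, so their counts are not read as results about the members. Between gfi1aa related mutants and the others, these fits ran from -0.09 to 0.15 for nkx2.5, -0.18 to 0.15 for gata4, 0.00 to 0.18 for gata6 and -0.02 to 0.15 for tbx5a, all without a call.

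With the replicate number as a block, 2 members were called between gfi1aa related mutants and the others, and no count of members changed in any of the 16 comparisons. Of the other named genes, fgf8a between the sides (adjusted p = 0.0518) and tnni1b in gfi1aa/1ab DM against gfi1ab-/- (0.0578) and in gfi1ab-/- against WT (0.0658) lost their call with the block. The numbers are not known to pair the samples, since deviations of same-numbered libraries correlated between -0.09 and 0.09 over 28 pairs of genotypes. Low counts limit myl7 (7 to 48 reads per library), tbx5a (37 to 68) and nkx2.5 (58 to 120), and 2 libraries per genotype limit each single comparison.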
